A study of Sus scrofa with 15 samples.

Results

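RNA with poly(A) tails from the corpus cavernosum, the spongy erectile body of the penis, of pigs (Sus scrofa) was compared between a group named ECs+ implantation and a group named defect. The comparison uses 6 of the 15 samples of the series, 3 libraries in each group, chosen by their titles and by the matching column names of a gene count table. The other groups are normal, implantation A and implantation B, with 3 libraries each. The study's design pairs normal, defect and implantation A with each other and ECs+ implantation with implantation B, so the pair described here is outside it. The labels do not spell out ECs, what the defect is, what was implanted, when tissue was taken, or the strain, sex and age of the animals. In the labels of the ECs+ implantation samples, 1 line of the description gives the name of normal 3, and the samples were taken as ECs+ implantation because their titles and column names say so. Whether the libraries of a group are from different animals is not stated. The p-values therefore measure only the spread between libraries, which may be technical.

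The corpus cavernosum is a mesh of smooth muscle and endothelium-lined blood spaces held in a collagenous frame and sheath. When connective tissue is wounded, fibroblasts become matrix-producing myofibroblasts that lay down and crosslink fibrillar collagen, while macrophages clear debris and release enzymes and signals. Endothelial cells line the blood spaces and regrowing vessels, and their nitric oxide relaxes the smooth muscle through cyclic GMP.

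Total gene counts were 17922125, 17770452 and 18810860 in ECs+ implantation 1, 2 and 3 and 17703564 in defect 3. Defect 1 and defect 2 were shallow, with 207769 and 250178 counts, so defect 3 held 97.5% of the counts of its group. A level is given as CPM, gene counts relative to the library total after scaling by TMM (trimmed mean of M-values) factors, and 3 values in a row are those of libraries 1, 2 and 3. A count of 0 allows up to 3 counts, which is 14.4 CPM in defect 1, 11.99 CPM in defect 2 and 0.16 to 0.17 CPM in the deep libraries, for counting error only. A fold against a group with 0 counts in all its libraries is a lower bound, set against 3 counts over the 3 libraries of the group together. Correlations of log2 CPM over genes were 0.992 to 0.993 between the ECs+ implantation libraries and 0.771 to 0.872 between the defect libraries. These were taken at unequal depth. Library pairs were also compared by chi-square per degree of freedom with all libraries thinned to 207769 counts. It was 1.12 to 1.22 in defect and 0.99 to 1.03 in ECs+ implantation, where counting error alone gives about 1. The 18S ribosomal RNA entry RN18S took 1.38% to 1.41% of counts in ECs+ implantation and 0.17% to 0.22% in defect, and its part in the results was not tested.

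Of 16582 genes with enough counts to test, 6511 (39.3%) were higher in ECs+ implantation and 4315 (26%) were lower, by edgeR's quasi-likelihood test with an adjusted p under 0.05. Calls of at least 2-fold numbered 2263 higher (13.6%) and 1939 lower (11.7%). The median log2 fold change over all tested genes was 0.17, and the scaling by library size alone raised it by 0.18 and made 70.4% of calls higher in place of 60.1%. The fit without defect 1 and 2, in which defect 3 alone is assumed to vary like the ECs+ implantation libraries, gave 5328 higher and 5622 lower genes, and the fit without defect 3 gave 1806 and 1447. The fitted spread between libraries was small, a biological coefficient of variation of 4.37%, so that small differences passed. The adjusted p of 125 genes was returned as 0, and p-values below are printed only for genes where they are not minute. Every fold change is log2 of ECs+ implantation over defect with its standard error (SE). Rises and falls, and the counts of them, are set against 0 and are not corrected for the median of 0.17. The counts of every list below stand beside the 39.3% of all tested genes that rose and the 26% that fell.

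Transcripts of squamous epithelium, a tissue outside the corpus cavernosum, were high in defect and nearly lacking in ECs+ implantation. Its 16 markers present in the table summed to 5596 to 5846 CPM in defect and to 365 to 373 CPM in ECs+ implantation, and of 15 tested 13 fell and 2 rose, with a median log2 of -6.61. KRT5, a keratin of basal epithelial cells (chromosome 5, 17862047 to 17868397 of Sscrofa11.1), measured 2196, 2066 and 2250 CPM in defect. In ECs+ implantation it measured 0, 0.215 and 0 CPM, 4 counts in all. KRT15, another basal keratin, had 0 counts in the ECs+ implantation libraries and was at least 649-fold lower there. KRT4, a keratin of mucosal epithelium, measured 428, 349 and 451 CPM in defect and 0.375, 0.429 and 0.357 CPM in ECs+ implantation. All libraries of defect lay above all those of ECs+ implantation for these 3 genes. Desmosomal DSP (log2 -10.38 ± 0.34), the adhesion gene PERP (-6.45 ± 0.16) and the keratinocyte checkpoint gene SFN (-6.61 ± 0.17) also fell. KRT10 and EPCAM rose by log2 0.83 and 1.18, from at most 2 counts in a shallow library. Without defect 3, 12 of the 15 fell, and KRT10 and EPCAM did not pass (adjusted p 0.214 and 0.156). The labels do not say whether the same part of the tissue was taken in both groups, and a difference in the tissue sampled cannot be told apart from the groups. The part of this epithelial difference in the results below was not tested, and in bulk RNA fewer cells of a type and less RNA per cell cannot be told apart.

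Fibrillar collagen transcripts were far lower in ECs+ implantation than in defect. Scar is used here as a name for matrix gene lists, since the labels do not say what the defect is. COL1A1, which encodes the main chain of type I collagen (chromosome 12, 26379087 to 26397180), measured 67570, 73030 and 72240 CPM in defect. In ECs+ implantation it measured 3905, 3884 and 3938 CPM. The groups did not overlap, the shallow libraries lay close to defect 3, and the log2 fold change was -4.18 ± 0.034, 18.2-fold lower. COL3A1, the type III collagen of early repair, measured 32420, 31840 and 34930 CPM in defect and 5796, 5733 and 5789 CPM in ECs+ implantation, again without overlap (log2 -2.52 ± 0.034). COL1A2, the partner chain in type I collagen, fell by 6.85-fold, and COL5A1, which starts type I fibrils, by 8.91-fold. Of the 11 fibrillar collagens 9 fell and 2 rose, 8 of them by at least 2-fold, with a median of -2.52, and 9 fell both without defect 1 and 2 and without defect 3. The exceptions were COL27A1, a cartilage-type fibrillar chain at 68.9, 37 and 83.1 CPM in defect and 134, 135 and 132 CPM in ECs+ implantation (log2 0.72 ± 0.069), and COL11A2 (0.34 ± 0.12), whose groups overlapped. COL11A2 did not pass without defect 3 (log2 0.09, adjusted p 0.891) or without defect 1 and 2 (0.22, adjusted p 0.0759).

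Collagens that sit on or between the fibrils moved the same way. COL12A1, a fibril-associated collagen of loaded connective tissue, measured 1132, 1068 and 1190 CPM in defect and 62.5, 65.1 and 59.1 CPM in ECs+ implantation, with no overlap and a log2 of -4.23 ± 0.05. COL6A3 and COL6A2, chains of the beaded type VI filament, fell by log2 -3.06 and -2.03. COL14A1 fell by 6.83-fold. COL6A5, a further type VI chain, measured 305, 263 and 219.8 CPM in defect and 0.749, 0.858 and 0.408 CPM in ECs+ implantation. Of 9 tested members 8 fell and 1 rose, with a median of -2.03, the same counts without defect 1 and 2 and without defect 3. The exception, COL6A6, had 0 counts in both shallow libraries, 0, 0 and 3.86 CPM over defect and 14.4, 14.9 and 14.4 CPM over ECs+ implantation.

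Enzymes that cut, fold and crosslink collagen fell with their substrates. LOX, which crosslinks collagen and elastin, measured 325, 267 and 279.7 CPM in defect and 17, 15.7 and 18.5 CPM in ECs+ implantation. The libraries of the groups did not overlap and the log2 was -4.04 ± 0.077. ADAMTS2, which removes the amino-terminal propeptide of collagen, fell from 719, 563 and 657 CPM to 66.5, 66 and 69.6 CPM. LOXL1 and LOXL2, relatives of LOX, fell by 6.26-fold and 5.45-fold. Of 20 members 18 fell, 1 rose and 1 did not pass, with a median of -0.93, and 15 fell without defect 3. ADAMTS14, a relative of ADAMTS2, was the member that rose (log2 0.60 ± 0.16), on 2 and 4 counts in the shallow libraries, and did not pass without defect 3 (adjusted p 0.538).

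The listed genes of activated fibroblasts were lower in ECs+ implantation with 3 exceptions. The list leaves out ACTA2, the actin of smooth muscle and myofibroblasts, which rose and is counted with smooth muscle below. POSTN, a matricellular protein of healing tissue, measured 2447, 2592 and 2683 CPM in defect and 166, 165 and 172 CPM in ECs+ implantation, and the groups lay far apart (log2 -3.97 ± 0.042). CTHRC1, a secreted protein of collagen-producing fibroblasts, measured 78.8, 86.3 and 84.8 CPM in defect and 3.16, 2.9 and 4.33 CPM in ECs+ implantation, with 16 and 21 counts in the shallow libraries (log2 -4.60 ± 0.15). THBS2, an antiangiogenic thrombospondin, had the largest fall of the list, from 1364, 1619 and 1628 CPM to 43.1, 43 and 45.7 CPM. TNC, a tenascin of wound matrix, measured 734, 657 and 759 CPM in defect and 146, 145 and 138 CPM in ECs+ implantation (log2 -2.38 ± 0.048). FN1, the fibronectin of provisional matrix, measured 5534, 5246 and 5692 CPM in defect and 1579, 1568 and 1571 CPM in ECs+ implantation (log2 -1.82 ± 0.037). SPARC, a collagen-binding matricellular protein, and COMP, a fibril-binding thrombospondin, fell by 3.98-fold and 5.05-fold. Of 21 members 18 fell and 3 rose, with a median of -2.04, and without defect 3 the counts were 16 and 2.

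The 3 that rose were 2 mechanosensitive CCN family genes and a hyaluronan-binding protein. CYR61 (now CCN1) measured 29.5, 16.4 and 42.5 CPM in defect and 182, 179 and 179.7 CPM in ECs+ implantation, with every ECs+ implantation library above every defect library (log2 2.11 ± 0.078). CTGF (now CCN2) measured 182, 214 and 226 CPM in defect and 455, 547 and 496 CPM in ECs+ implantation (log2 1.16 ± 0.052). TNFAIP6, which transfers proteins onto hyaluronan, measured 39.4, 32.9 and 27.2 CPM in defect and 33.3, 45.3 and 35.2 CPM in ECs+ implantation; the groups overlapped, and its rise of 0.46 ± 0.11 did not pass without defect 3 (log2 0.06, adjusted p 0.924) or without defect 1 and 2 (adjusted p 0.0581).

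**Figure D1:**
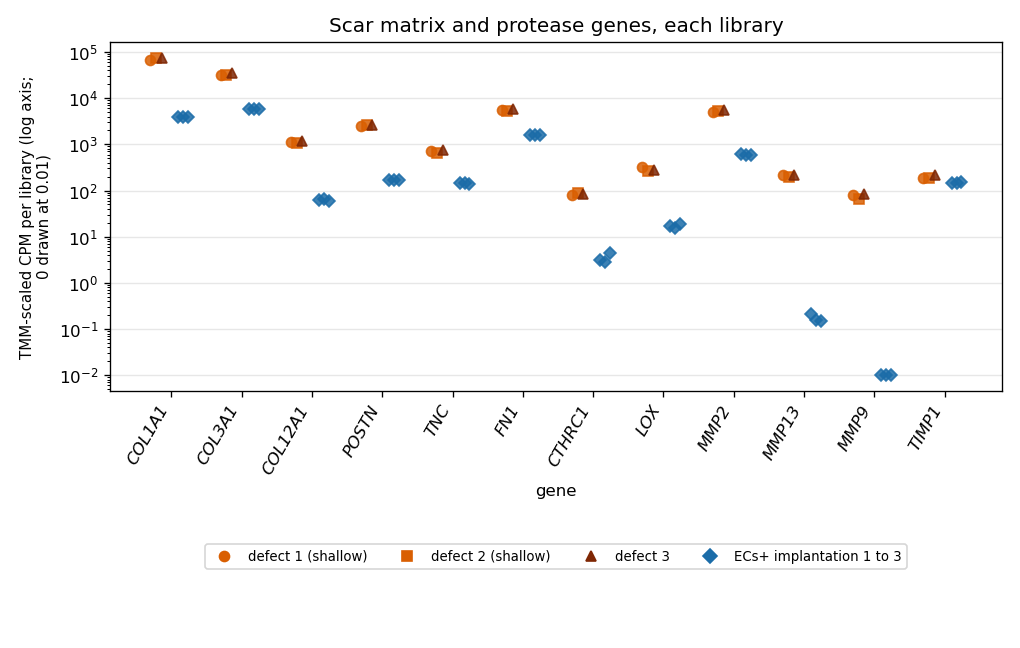
TMM-scaled CPM of 12 scar matrix and protease genes in each library on a log axis, with the shallow libraries defect 1 (circles) and defect 2 (squares), defect 3 (triangles) and ECs+ implantation (diamonds), and with values of 0 drawn at 0.01. COL1A1 lies at 67570 to 73030 CPM in defect and at 3884 to 3938 CPM in ECs+ implantation, MMP13 and MMP9 lie below 1 CPM in ECs+ implantation, and TIMP1 shows the smallest gap.

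Proteoglycan and elastic-fibre transcripts were lower as well. FMOD, a fibromodulin that binds fibrils, measured 2698, 2757 and 2819 CPM in defect and 688, 672 and 695 CPM in ECs+ implantation (log2 -2.02 ± 0.039). BGN, biglycan, fell from 6774, 7859 and 7636 CPM to 2412, 2331 and 2321 CPM, LUM, lumican, by 5.28-fold and KERA, keratocan, by 4.76-fold. Of 14 small proteoglycan and tendon-like genes 13 fell and 1 did not pass, with a median of -1.68. Without defect 3, 11 fell and 1 rose. FBN1, the fibrillin of microfibrils, measured 1029, 1035 and 1090 CPM in defect and 158, 147 and 153 CPM in ECs+ implantation, MFAP2 fell by 12.7-fold, LTBP2 by 7.54-fold and MFAP4 by 4.66-fold. Of 15 elastic-fibre genes 13 fell, 1 rose and 1 did not pass (median -1.36), and 10 fell without defect 3. The one that rose, EFEMP1, a fibulin of fine elastic networks, measured 49.2, 41.1 and 44.2 CPM in defect and 117, 124 and 131 CPM in ECs+ implantation (log2 1.49 ± 0.08).

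Transcripts of several collagen-degrading enzymes were nearly lacking in ECs+ implantation. MMP13, collagenase 3 (chromosome 9, 33549003 to 33616700), measured 222, 193 and 217 CPM in defect, from 45 and 47 counts in the shallow libraries. In ECs+ implantation it measured 0.214, 0.161 and 0.153 CPM, 10 counts in all 3 libraries together. The fitted log2 was -10.18 ± 0.48, with no overlap. MMP1, the interstitial collagenase, measured 167, 160.2 and 178 CPM in defect and 0.321, 0.268 and 0.255 CPM in ECs+ implantation. MMP9, a gelatinase of leukocytes and migrating epithelium, measured 78.8, 65.7 and 85.8 CPM in defect and had 0 counts in ECs+ implantation, where it was at least 1621-fold lower. MMP2, the gelatinase of fibroblasts, measured 5017, 5259 and 5450 CPM in defect and 629.7, 598 and 601 CPM in ECs+ implantation (log2 -3.12 ± 0.037).

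The inhibitors of these enzymes were divided. TIMP2 fell from 2964, 3168 and 3172 CPM to 996, 954 and 985 CPM (log2 -1.68 ± 0.039). TIMP1 measured 182, 185 and 215 CPM in defect and 148, 144 and 151 CPM in ECs+ implantation, a smaller fall of -0.52 ± 0.058 that did not pass without defect 3 (log2 -0.34, adjusted p 0.153). TIMP3, held in the matrix, rose from 1201, 1191 and 1347 CPM to 2008, 2008 and 2013 CPM (log2 0.62 ± 0.042), and TIMP4 rose by 3.81-fold. Of 28 proteases and inhibitors 21 fell and 6 rose, with a median of -1.50, and without defect 3 the counts were 15 and 3. The other members that rose were MMP11 (log2 0.79 ± 0.061), MMP28 (0.63 ± 0.10), MMP23B (0.43 ± 0.075) and PLAT, the tissue plasminogen activator (0.33 ± 0.062). Without defect 3, MMP28, MMP23B and PLAT did not pass, with log2 of 0.79, 0.28 and 0.11 and adjusted p of 0.129, 0.481 and 0.687.

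Transforming growth factor beta, the main fibrogenic signal, gave a mixed list of ligands, receptors and targets. Its ligand TGFB1 measured 83.7, 94.5 and 101 CPM in defect and 101, 103 and 104 CPM in ECs+ implantation, with overlapping groups and no call (log2 0.03 ± 0.069, adjusted p 0.741), and it turned negative with DESeq2 size factors or upper quartile factors. The ligand TGFB3 fell from 158, 136 and 165 CPM to 52.2, 51.5 and 58.4 CPM. Receptor TGFBR2 rose from 714, 686 and 721 CPM to 1073, 1060 and 1052 CPM (log2 0.57 ± 0.044), while the signal carrier SMAD3 fell (log2 -1.22 ± 0.062). Among the targets, TGFBI fell by 8.72-fold and the feedback inhibitor PMEPA1 by 3.77-fold. Of 16 members 10 fell, 5 rose and 1 did not pass, with a median of -0.56; without defect 3, 7 fell and 3 rose. Besides TGFBR2 the risen members were the corepressor TGIF1 (log2 1.31 ± 0.093), the activin chain INHBA (0.61 ± 0.13) and the signal carriers SMAD2 (0.60 ± 0.092) and SMAD4 (0.40 ± 0.070). SMAD2 and SMAD4 did not pass without defect 3 (adjusted p 0.285 and 0.102).

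Markers of resting fibroblasts were divided. GSN, gelsolin, a filament-severing protein, measured 12700, 13020 and 13800 CPM in defect and 32520, 31600 and 32150 CPM in ECs+ implantation and was the most abundant transcript of the ECs+ implantation libraries among tested genes (log2 1.27 ± 0.035). CLEC3B, tetranectin, rose from 251, 234 and 213 CPM to 654, 618 and 644 CPM, and APOD, a lipocalin, by 1.67-fold. PDGFRA, the growth factor receptor of fibroblasts, fell from 482, 390.3 and 501 CPM to 116, 120 and 121 CPM. The matrix genes DPT (log2 -1.86 ± 0.11) and LAMA2 (-1.11 ± 0.078) fell too. Of 11 members 6 rose, 3 fell and 2 did not pass, with a median of 0.42, where 39.3% of all tested genes rose and 26% fell; 5 rose and 3 fell without defect 3.

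Most macrophage transcripts tested were lower in ECs+ implantation. LYZ, lysozyme of phagocytes (chromosome 5, 33612593 to 33618953), measured 153, 148 and 179 CPM in defect, from 31 and 36 counts in the shallow libraries. In ECs+ implantation it measured 12, 13.9 and 14.8 CPM. The groups lay far apart, and the log2 was -3.69 ± 0.089, 12.9-fold lower. CD163, the haemoglobin scavenger receptor, measured 88.6, 98.6 and 98.6 CPM in defect and 13.1, 13.6 and 11.2 CPM in ECs+ implantation (log2 -2.96 ± 0.11). MRC1, the mannose receptor, measured 54.2, 61.6 and 51.8 CPM in defect and 11.2, 11.9 and 11 CPM in ECs+ implantation (log2 -2.21 ± 0.13). Neither gene overlapped between the groups. CSF1R, the receptor for macrophage survival signals, measured 182, 205 and 229 CPM in defect and 66.1, 61.6 and 66 CPM in ECs+ implantation (log2 -1.80 ± 0.064). CD14, the lipopolysaccharide coreceptor, measured 54.2, 49.3 and 62.7 CPM in defect and 26.6, 26.9 and 28.7 CPM in ECs+ implantation, a fall of -1.17 ± 0.10 that without defect 3 had an adjusted p of 0.0478. GPNMB, a glycoprotein of lipid-laden macrophages, fell from 290.5, 308 and 303 CPM to 148, 151 and 141 CPM.

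CD68, a lysosomal glycoprotein of macrophages, depended on the deep defect library. It measured 24.6, 32.9 and 51.1 CPM in defect and 22.7, 21.1 and 21.9 CPM in ECs+ implantation, with 5 and 8 counts in the shallow libraries. Every defect library lay above every ECs+ implantation library, but defect 1 by a small margin, and the fall of -1.18 ± 0.11 was -0.43 with an adjusted p of 0.565 without defect 3. Of 23 macrophage markers tested 19 fell and 4 did not pass, with a median of -0.78, where 26% of all tested genes fell. Falls of at least 2-fold numbered 11, and log2 ran from -3.69 to 0.59. Rises numbered 0 by edgeR, 0 at an unadjusted p under 0.05 and 0 by DESeq2. ITGAM, FCGR1A, AIF1 and CD80 were the 4 that did not pass. With all 15 libraries scaled together, AIF1 averaged 6.11 CPM (0 to 14.32) in defect and 11.35 CPM in ECs+ implantation. The count of falls was 22 without defect 1 and 2 and 7 without defect 3, with medians of -0.95 and -0.93. The 24 markers in the table, MARCO too low to test among them, summed to 1492 to 1667 CPM in defect and 879 to 892 CPM in ECs+ implantation. CD86, counted as fallen, averaged 16.13 CPM (8.007 to 26.37) in defect and 18.15 CPM in ECs+ implantation with all 15 libraries scaled together. Its call thus depends on the weighting of libraries by depth.

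Lysosomal genes were mostly lower. ACP5, the tartrate-resistant acid phosphatase of osteoclasts and macrophages, measured 14.8, 57.5 and 31.6 CPM in defect and 2.35, 1.99 and 2.85 CPM in ECs+ implantation (log2 -3.74 ± 0.21). CTSB, a cathepsin found in most cell types, fell from 935, 1035 and 1010 CPM to 471, 453 and 467 CPM, and the protease LGMN by 1.95-fold. LAMP2, a membrane protein of lysosomes, fell by 6.87-fold, while CTSH rose by 1.33-fold (log2 0.41 ± 0.049). Of 17 tested 11 fell, 1 rose and 5 did not pass, with a median of -0.31. CTSS, counted as fallen, averaged 132.1 CPM (104.1 to 175.3) in defect and 143.8 CPM in ECs+ implantation with all 15 libraries scaled together. Its call thus depends on the weighting of libraries by depth. Falls numbered 16 without defect 1 and 2 and 6 without defect 3.

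**Figure D2:**
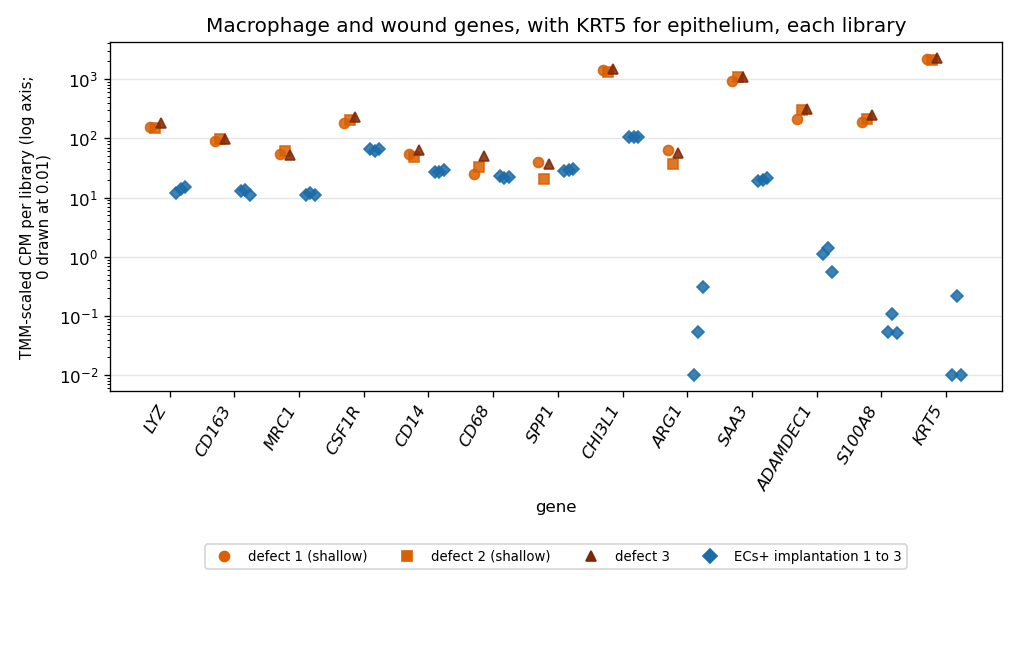
TMM-scaled CPM of 12 macrophage and wound genes and of the epithelial keratin KRT5 in each library on a log axis, with the shallow libraries defect 1 (circles) and defect 2 (squares), defect 3 (triangles) and ECs+ implantation (diamonds), and with 0 drawn at 0.01. LYZ lies at 148 to 179 CPM in defect and at 12 to 14.8 CPM in ECs+ implantation, SPP1 overlaps between the groups, and ADAMDEC1, S100A8, ARG1 and KRT5 lie below 2 CPM in ECs+ implantation.

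Several wound enzymes and acute-phase genes that accompany macrophages in repair fell. CHI3L1, a chitinase-like glycoprotein of inflamed tissue, measured 1413, 1319 and 1478 CPM in defect and 104, 106 and 105 CPM in ECs+ implantation (log2 -3.79 ± 0.046). SAA3, an acute-phase protein made in injured tissue, measured 926, 1080 and 1098 CPM in defect and 19.4, 19.8 and 21.2 CPM in ECs+ implantation (log2 -5.74 ± 0.062). ADAMDEC1, a macrophage metalloprotease, measured 212, 296 and 308 CPM in defect and 1.12, 1.4 and 0.56 CPM in ECs+ implantation. In each of these genes the defect libraries lay more than 10-fold above those of ECs+ implantation. ARG1, the arginase of repair macrophages and keratinocytes, measured 64, 37 and 57.2 CPM in defect and 0, 0.0537 and 0.306 CPM in ECs+ implantation, from 7 counts in all 3 libraries together (log2 -8.72 ± 0.61). SPP1, osteopontin of macrophages and bone, measured 39.4, 20.5 and 36.7 CPM in defect and 28.2, 28.9 and 30.3 CPM in ECs+ implantation on 8 and 5 counts in the shallow libraries. Its groups overlapped, and the fall of -0.31 ± 0.11 (adjusted p 0.00912) was -0.02 without defect 3 (adjusted p 0.981).

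Some chemokines and a gene of prostaglandin synthesis rose. CCL5, which attracts T cells and monocytes, measured 0, 20.5 and 8.4 CPM in defect and 76.4, 69.5 and 71.9 CPM in ECs+ implantation (log2 3.10 ± 0.15). CXCL2, a neutrophil chemokine, measured 0, 0 and 2.33 CPM in defect and 33, 45.3 and 39.1 CPM in ECs+ implantation. PTGS2, the inducible cyclooxygenase, measured 0, 0 and 3.13 CPM in defect and 29.8, 29.1 and 31 CPM in ECs+ implantation. CXCL10, an interferon-induced chemokine, rose by 4.71-fold. CXCL2, PTGS2 and CCL4 had 0 counts in both shallow libraries, where up to 14.4 and 11.99 CPM would be missed, so the size of their rise rests on defect 3. Of 25 ligands, receptors and wound enzymes tested 14 fell, 9 rose and 2 did not pass, with a median of -0.31. Of all tested genes 39.3% rose and 26% fell, so rises were not more frequent in this list. Without defect 3 the counts of the list were 6 falls and 5 rises.

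Markers of other leukocytes that a wound can hold also differed, and the part of these cells in the macrophage results was not tested. Of 6 tested neutrophil markers 5 fell and 1 did not pass, and the summed level of the list was 1007 to 1294 CPM in defect and 4.8 to 6.38 CPM in ECs+ implantation. S100A8, S100A9 and S100A12, calgranulins of neutrophils, monocytes and stressed keratinocytes, made up most of it. In normal, implantation A and implantation B the neutrophil list averaged 533, 1151 and 1331 CPM. The squamous epithelium list averaged 2732, 5355 and 5670 CPM in these groups. The part of epithelium in the fall of the calgranulins was not tested. S100A9 measured 512, 407 and 563 CPM in defect and 0.749, 0.322 and 1.27 CPM in ECs+ implantation. S100A12 fell by log2 -9.51. CSF3R, the receptor of granulocyte growth factor, measured 14.8, 4.11 and 13 CPM in defect and 1.82, 2.47 and 1.63 CPM in ECs+ implantation on 3 and 1 counts in the shallow libraries, and its fall of -2.68 ± 0.26 did not pass without defect 3 (adjusted p 0.116). T and NK cell markers summed to 38.5 to 40.0 CPM in defect and 17.2 to 19.4 CPM in ECs+ implantation, with 7 of 8 tested lower, and none of them had 10 counts in both shallow libraries, so these calls rest on defect 3. The 10 MHC class II genes went against the macrophage list: 9 rose and 1 fell, with a median of 0.82. CD74, the invariant chain that guides class II molecules, measured 684, 620.4 and 766 CPM in defect and 2165, 2095 and 2130 CPM in ECs+ implantation (log2 1.52 ± 0.044). SLA-DRB1, SLA-DQA1 and SLA-DRA rose by 2.19-fold, 1.86-fold and 1.59-fold and SLA-DOB fell (log2 -2.09 ± 0.31). Reads of near-identical SLA genes can be split in counting, so the SLA values are uncertain.

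Endothelial transcripts were mostly higher in ECs+ implantation. CLDN5, the claudin of endothelial tight junctions (chromosome 14, 51161490 to 51162382), measured 143, 127 and 130 CPM in defect, from 29 and 31 counts in the shallow libraries. In ECs+ implantation it measured 349.5, 334 and 350.1 CPM. The groups did not overlap, and the log2 was 1.40 ± 0.057, 2.64-fold higher. PECAM1, an adhesion molecule of all endothelium, measured 586, 423 and 512 CPM in defect and 1154, 1127 and 1156 CPM in ECs+ implantation, again without overlap (log2 1.17 ± 0.046). NOS3, which makes nitric oxide in endothelium, measured 83.7, 98.6 and 109 CPM in defect and 237, 227 and 219 CPM in ECs+ implantation (log2 1.08 ± 0.061). EMCN, a sialomucin of capillaries and veins, had the largest rise of the list, from 29.5, 65.7 and 66.2 CPM to 304, 293 and 306 CPM. CLEC14A, RAMP2 and MMRN2, membrane or matrix proteins of endothelium, rose by 3.75-fold, 3.06-fold and 2.85-fold.

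The size of the rise differed among endothelial genes. CDH5, the cadherin of endothelial junctions, measured 177, 177 and 227 CPM in defect and 284, 269 and 284 CPM in ECs+ implantation. It rose by log2 0.33 ± 0.053, which was 0.16 without defect 1 and 2 and 0.64 without defect 3. KDR, the main receptor of VEGFA, measured 59.1, 119 and 123 CPM in defect and 149, 155 and 149 CPM in ECs+ implantation, with defect 1 lowest on 12 counts. Its rise of 0.32 ± 0.063 was 0.16 without defect 1 and 2 and 0.70 without defect 3. VWF, the clotting glycoprotein stored in endothelium, went the other way at 955, 1048 and 1047 CPM in defect and 574, 572 and 585 CPM in ECs+ implantation (log2 -0.84 ± 0.043). PLVAP, a protein of fenestrated and growing vessels, fell from 153, 234 and 213 CPM to 85.1, 77 and 79.5 CPM (log2 -1.39 ± 0.062).

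Of the 29 endothelial genes 21 rose, 7 fell and 1 did not pass, where 39.3% of all tested genes rose and 26% fell. The median was 0.81, and 12 of the rises were at least 2-fold, where 13.6% of all tested genes rose that much. Without defect 1 and 2 the counts were 20 and 8, and without defect 3 they were 17 and 2. Besides VWF and PLVAP the fallen genes were the leukocyte-binding selectins SELP (log2 -1.08 ± 0.10) and SELE (-0.83 ± 0.12), the tip-cell gene ESM1 (-1.83 ± 0.37), the TGF-beta coreceptor ENG (-0.63 ± 0.056) and the water channel AQP1 (-0.21 ± 0.042). These 5 did not pass without defect 3, where the adjusted p was 0.145, 0.324, 0.73, 0.0715 and 0.34. AQP1 overlapped between the groups and ESM1 had at most 1 count in a shallow library. The list summed to 5054 to 5253 CPM in defect and 8469 to 8593 CPM in ECs+ implantation.

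**Figure D3:**
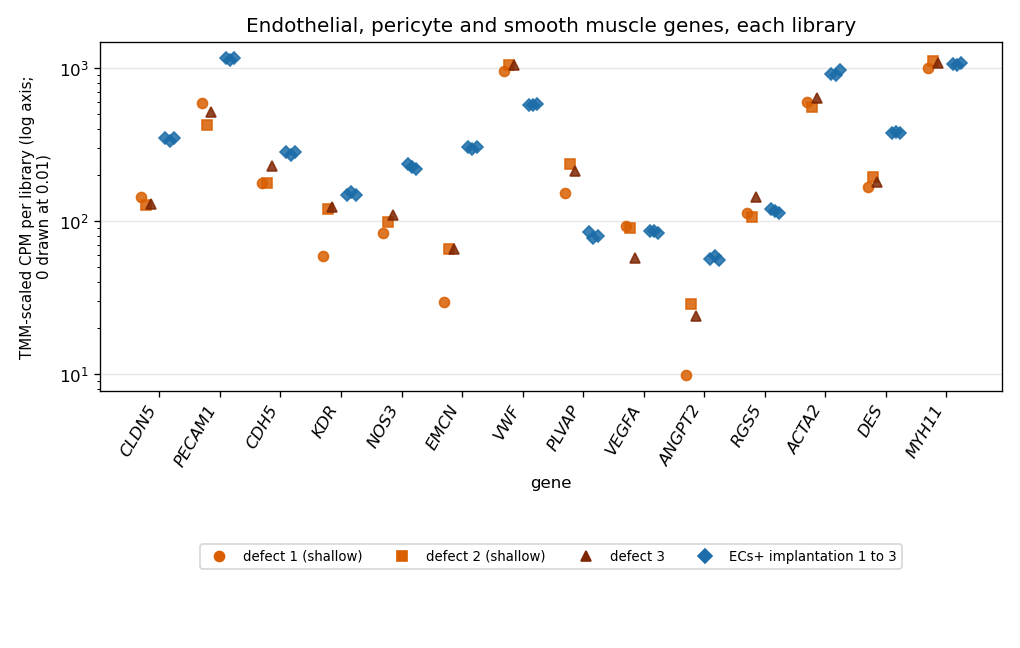
TMM-scaled CPM of 14 endothelial, pericyte and smooth muscle genes in each library on a log axis, with the shallow libraries defect 1 (circles) and defect 2 (squares), defect 3 (triangles) and ECs+ implantation (diamonds). CLDN5 lies at 127 to 143 CPM in defect and at 334 to 350 CPM in ECs+ implantation, VWF and PLVAP lie lower in ECs+ implantation, and VEGFA, RGS5 and MYH11 overlap.

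Angiogenic ligands and their receptors did not follow the endothelial list. VEGFA, the main vessel growth factor, measured 93.5, 90.4 and 57.2 CPM in defect and 86.4, 86.4 and 83.2 CPM in ECs+ implantation. The shallow libraries lay above ECs+ implantation and defect 3 below it, so the rise of 0.53 ± 0.079 became -0.13 without defect 3 (adjusted p 0.724). ANGPT2, a ligand that loosens vessel walls, measured 9.85, 28.8 and 23.9 CPM in defect and 56.1, 58.8 and 55.3 CPM in ECs+ implantation on 2 and 7 counts in the shallow libraries, without overlap (log2 1.26 ± 0.11). APLNR, the apelin receptor of sprouting vessels, fell from 59.1, 28.8 and 69.4 CPM to 14, 14.8 and 14.3 CPM. FLT4, a VEGFC receptor, fell by 2.54-fold and NRP1, a VEGF coreceptor, by 1.63-fold. Of 20 tested 10 fell, 5 rose and 5 did not pass, with a median of -0.31, and without defect 3 the counts were 4 and 1. The other ligands that rose, PGF (log2 1.11 ± 0.14), VEGFC (0.78 ± 0.13) and VEGFB (0.46 ± 0.083), did not pass without defect 3 (adjusted p 0.201, 0.449 and 0.261). In the Notch and arteriovenous list 8 of 15 rose and 3 fell, where 39.3% of all tested genes rose and 26% fell. Its median of 0.21 lay near the 0.17 of all tested genes and was 0.06 without defect 1 and 2. Without defect 3 the counts of this list were 3 and 2. Its risen members included the arterial ligand DLL4 (log2 1.34 ± 0.11) and the venous regulator NR2F2 (1.49 ± 0.06). NOTCH2 and the guidance receptor UNC5B fell (log2 -0.61 ± 0.049 and -2.19 ± 0.12), as did NOTCH1 (-0.24 ± 0.056), whose groups overlapped and which did not pass without defect 3 (adjusted p 0.561).

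Basement membrane genes, which are not particular to vessels, and lymphatic genes were mostly lower. COL4A1, a chain of type IV collagen, measured 1305, 1532 and 1547 CPM in defect and 452, 459.5 and 435 CPM in ECs+ implantation (log2 -1.75 ± 0.042), and its partner chain COL4A2 fell by 3.15-fold. HSPG2, perlecan, and LAMB1, a laminin chain, fell by 2.9-fold and 3.23-fold. Of 15 basement membrane genes 11 fell, 1 rose and 3 did not pass (median -0.72), and 10 fell without defect 3. The laminin chain LAMB2 rose by 0.10 ± 0.044 (adjusted p 0.038), less than the median of all genes, and was -0.05 without defect 1 and 2 (adjusted p 0.179). Of 7 lymphatic genes 5 fell, 1 rose and 1 did not pass, and 2 fell without defect 3. CCL21, the chemokine of lymphatic endothelium, measured 138, 94.5 and 107 CPM in defect and 8.08, 7.99 and 6.52 CPM in ECs+ implantation, and MMRN1 fell by 5.37-fold. LYVE1 and RELN fell by log2 -2.22 and -1.68, and PROX1, the lymphatic master regulator, rose by 0.55 ± 0.18; these 3 did not pass without defect 3 (adjusted p 0.161, 0.656 and 0.197).

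Among mural cell genes, pericyte genes were more often lower and smooth muscle genes more often higher, where 39.3% of all tested genes rose and 26% fell. Most changes were small: at 2-fold or more, 2 of 10 pericyte genes fell and, of 20 smooth muscle genes, 2 rose and 1 fell. PDGFRB, the receptor that draws pericytes to vessels, measured 935, 1056 and 1008 CPM in defect and 550.5, 524 and 540.1 CPM in ECs+ implantation (log2 -0.90 ± 0.044). CD248, ABCC9 and NOTCH3 fell by 2.86-fold, 2.69-fold and 1.85-fold. RGS5, a regulator of G protein signals in pericytes, measured 113, 107 and 144 CPM in defect and 119.6, 117 and 112 CPM in ECs+ implantation, with overlap, and its fall of -0.28 ± 0.063 was 0.06 without defect 3 (adjusted p 0.853). Of 10 pericyte genes 7 fell, 1 rose and 2 did not pass (median -0.29), and 4 fell without defect 3. The one that rose, the potassium channel KCNJ8, overlapped between the groups and did not pass without defect 3 (log2 0.19, adjusted p 0.856).

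Of 20 contractile genes of smooth muscle 11 rose, 4 fell and 5 did not pass, with a median of 0.37, and 9 rose and 1 fell without defect 3. DES, the intermediate filament desmin, measured 167, 193 and 179.9 CPM in defect and 377, 381 and 376 CPM in ECs+ implantation (log2 1.07 ± 0.054). ACTA2, the actin of smooth muscle and myofibroblasts, measured 596, 555 and 637 CPM in defect and 913, 895 and 970.4 CPM in ECs+ implantation, without overlap (log2 0.56 ± 0.045). MYH11, the smooth muscle myosin, measured 999, 1109 and 1076 CPM in defect and 1058, 1049 and 1082 CPM in ECs+ implantation. Its groups overlapped, no difference was called (log2 -0.01 ± 0.043, adjusted p 0.812), and the sign turned with scaling by library size alone. TPM1, MYL9 and TAGLN, actin and myosin regulators, rose by 2-fold, 1.88-fold and 1.84-fold. The fallen members were the actin-binding CALD1 (log2 -0.54 ± 0.049) and SYNPO2 (-0.74 ± 0.079), the myosin kinase MYLK (-0.21 ± 0.052) and the transcriptional activator MYOCD (-1.92 ± 0.35). Without defect 3 the adjusted p was 0.173 for SYNPO2, 0.444 for MYLK and 0.768 for MYOCD.

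Nitric oxide and cyclic GMP genes, which govern erection, were divided. PDE2A, a phosphodiesterase that breaks down cyclic nucleotides, measured 54.2, 65.7 and 62.4 CPM in defect and 220, 215 and 220.5 CPM in ECs+ implantation (log2 1.81 ± 0.069). DDAH2, which clears an inhibitor of nitric oxide synthase, rose by 2.48-fold. KCNMA1, the large-conductance potassium channel of cavernous muscle, fell from 78.8, 53.4 and 58.2 CPM to 11.9, 12.4 and 14.6 CPM (log2 -2.18 ± 0.12), and the phosphodiesterase PDE3A fell by 7.52-fold on 2 and 7 counts in the shallow libraries. The cyclase subunit GUCY1B3 and the phosphodiesterases PDE9A and PDE1A rose by log2 0.82, 1.15 and 0.67 and did not pass without defect 3 (adjusted p 0.224, 0.0939 and 0.349). Of 19 tested 8 fell, 5 rose and 6 did not pass, and without defect 3 there were 2 of each. The median was -0.21 and turned to 0.33 without defect 3.

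**Figure D4:**
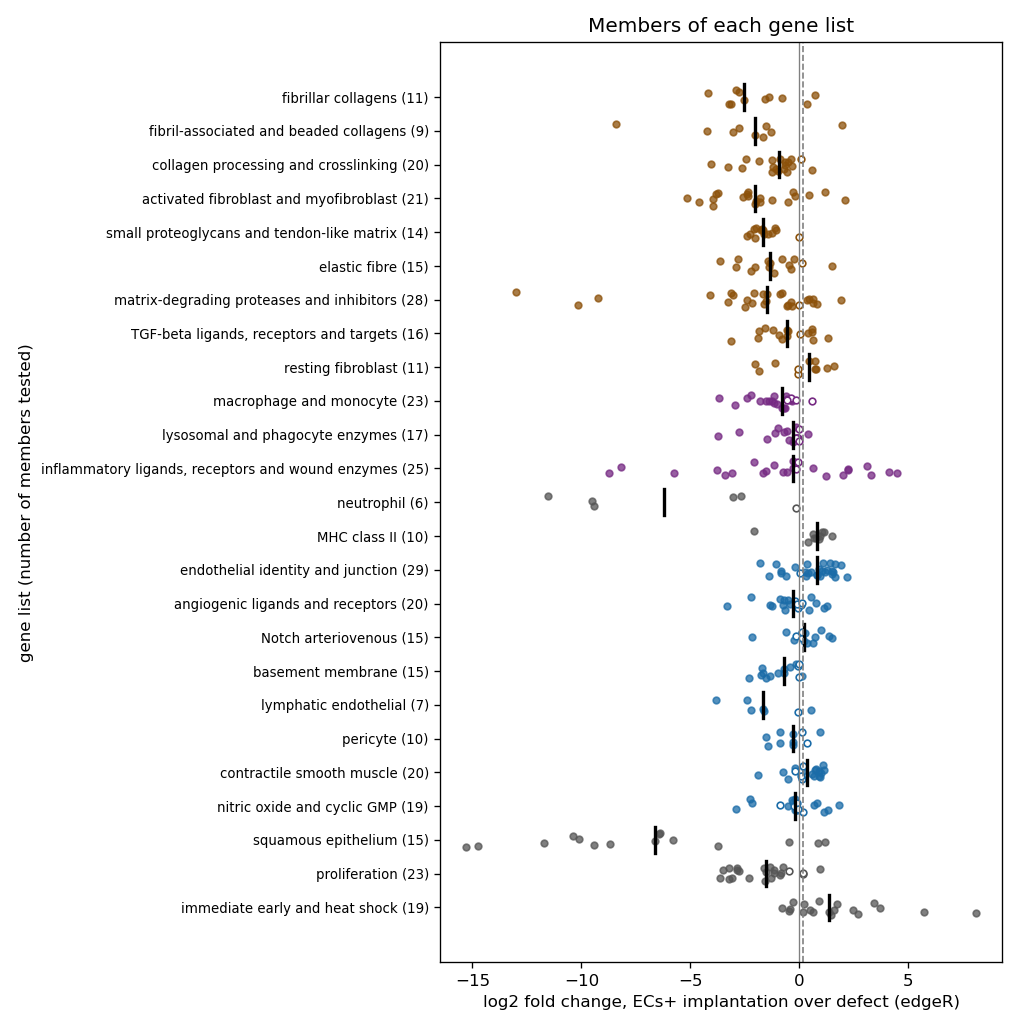
Log2 fold change (ECs+ implantation over defect) of each tested member of 25 gene lists, coloured brown for scar, purple for macrophage, blue for vessel and grey for other lists; filled points passed the test, open points did not, black bars are list medians and the dashed line is the median of all genes, 0.17. Fibrillar collagens have a median of -2.52, macrophage markers -0.78, endothelial genes 0.81 and squamous epithelium -6.61.

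The largest falls among named genes without overlap were those of KRT6A, KRT5, MMP9, GJB2, KRT15 and S100A8, of which 4 are epithelial. KRT6A, a keratin of wounded epidermis with near-identical copies and so uncertain, measured 1851, 1730 and 1844 CPM in defect and had 2 counts in ECs+ implantation, a ratio of 52460 (95% counting interval 14520 to 433200). GJB2, a connexin of keratinocytes, measured 158, 144 and 152 CPM in defect and had 1 count in ECs+ implantation, a ratio of 8643 (1550 to 341500). S100A8 measured 192, 209.5 and 246 CPM in defect and 0.0535, 0.107 and 0.051 CPM in ECs+ implantation. The largest rises were those of SAP25, FOSB, NR2E3, FOS, CCL4 and GABRD. SAP25, a subunit of a corepressor complex, had 0 counts in defect and 19.3, 18.3 and 19.2 CPM in ECs+ implantation, at least 106-fold higher. That bound rests on the depth of defect 3, since the shallow libraries would miss up to 14.4 and 11.99 CPM. FOSB, a stimulus-induced transcription factor, measured 0, 12.3 and 3.62 CPM in defect and 1031, 1053 and 1028 CPM in ECs+ implantation. FOS, its relative, measured 24.6, 4.11 and 14.2 CPM in defect and 758, 707 and 763 CPM in ECs+ implantation (log2 5.71 ± 0.11). NR2E3, a nuclear receptor known from photoreceptors, measured 0, 0 and 0.368 CPM in defect and 19.7, 24.7 and 18 CPM in ECs+ implantation, and CCL4, a monocyte chemokine, 0, 0 and 1.1 CPM in defect and 23.6, 24.7 and 24.4 CPM in ECs+ implantation. GABRD, a GABA receptor subunit, measured 4.92, 4.11 and 0.92 CPM in defect and 20.6, 16.9 and 18.4 CPM in ECs+ implantation, and without defect 3 its rise had an adjusted p of 0.0731.

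Immediate early and heat shock genes, listed together as genes that respond quickly to many stimuli, summed to 1667 to 1969 CPM in defect and 5298 to 5374 CPM in ECs+ implantation. Of 19 tested 15 rose and 4 fell, with a median of 1.35, and 9 rose and 2 fell without defect 3. JUN measured 103, 86.3 and 105 CPM in defect and 602, 574 and 573 CPM in ECs+ implantation, and EGR1 24.6, 20.5 and 36 CPM in defect and 462, 459.5 and 482 CPM in ECs+ implantation. The members that fell were MYC (log2 -0.78 ± 0.11) and the heat shock genes HSPA8 (-0.45 ± 0.051), DNAJB1 (-0.49 ± 0.090) and HSP90AA1 (-0.31 ± 0.046). Of these, MYC and DNAJB1 did not pass without defect 3 (adjusted p 0.461 and 0.468). The heat shock genes that rose, HSPB1 (log2 0.17 ± 0.052), HSPH1 (0.23 ± 0.11) and HSPA1L (1.35 ± 0.57), did not pass without defect 3 (adjusted p 0.0658, 0.962 and 0.553) or without defect 1 and 2 (0.742, 0.328 and 0.105). The part of the immediate early genes in the rise of CYR61, CTGF, PTGS2 and the chemokines was not tested. Proliferation genes fell: 19 of 23 were lower, 1 was higher and 3 did not pass, with a median of -1.52, and 11 were lower without defect 3. MKI67, the marker of cycling cells, measured 64, 82.2 and 66.4 CPM in defect and 5.51, 6.12 and 6.17 CPM in ECs+ implantation (log2 -3.50 ± 0.14). RRM2, TOP2A and CENPF fell by 9.42-fold, 7.16-fold and 12.6-fold. In this list 1 gene had at least 10 counts in both shallow libraries, so the sizes of the falls rest mostly on defect 3. AURKB, a mitotic kinase, rose by 0.96 ± 0.16, overlapped between the groups and was -0.15 without defect 3 (adjusted p 0.85).

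Levels over all 15 libraries, scaled together, place both groups beside the other 3 as a description without a test. COL1A1 averaged 8105 ± 339 CPM (SD, n = 3) in normal, 71380 ± 7373 in defect, 41860 ± 206 in implantation A, 82160 ± 1225 in implantation B and 4003 ± 30.7 in ECs+ implantation. ECs+ implantation thus had the lowest mean of the 5 groups, below normal. MMP13 averaged 0.225 ± 0.129 CPM in normal, 212 ± 24.4 in defect, 0.91 ± 0.194 in implantation A, 1.26 ± 0.414 in implantation B and 0.18 ± 0.0338 in ECs+ implantation. Only the defect group exceeded 2 CPM. LYZ averaged 1.05 ± 0.433 CPM in normal, 161 ± 29.3 in defect, 4.62 ± 0.391 in implantation A, 35.9 ± 0.499 in implantation B and 13.9 ± 1.47 in ECs+ implantation. CLDN5 averaged 369 ± 12.5 CPM in normal, 134 ± 9.03 in defect, 89.7 ± 1.15 in implantation A, 72.7 ± 1.35 in implantation B and 353 ± 9.3 in ECs+ implantation. Normal and ECs+ implantation were thus the high groups for CLDN5, and their SDs overlapped. KRT5 averaged 651 ± 31.7 CPM in normal, 2184 ± 238 in defect, 1490 ± 2.09 in implantation A, 1646 ± 24.3 in implantation B and 0.0733 ± 0.127 in ECs+ implantation, so that ECs+ implantation alone of the 5 groups lay near 0 for this keratin. FOS averaged 2.88 ± 0.511 CPM in normal, 14.3 ± 9.74 in defect, 84.96 ± 4.11 in implantation A, 2417 ± 9.32 in implantation B and 761 ± 32.1 in ECs+ implantation.

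**Figure D5:**
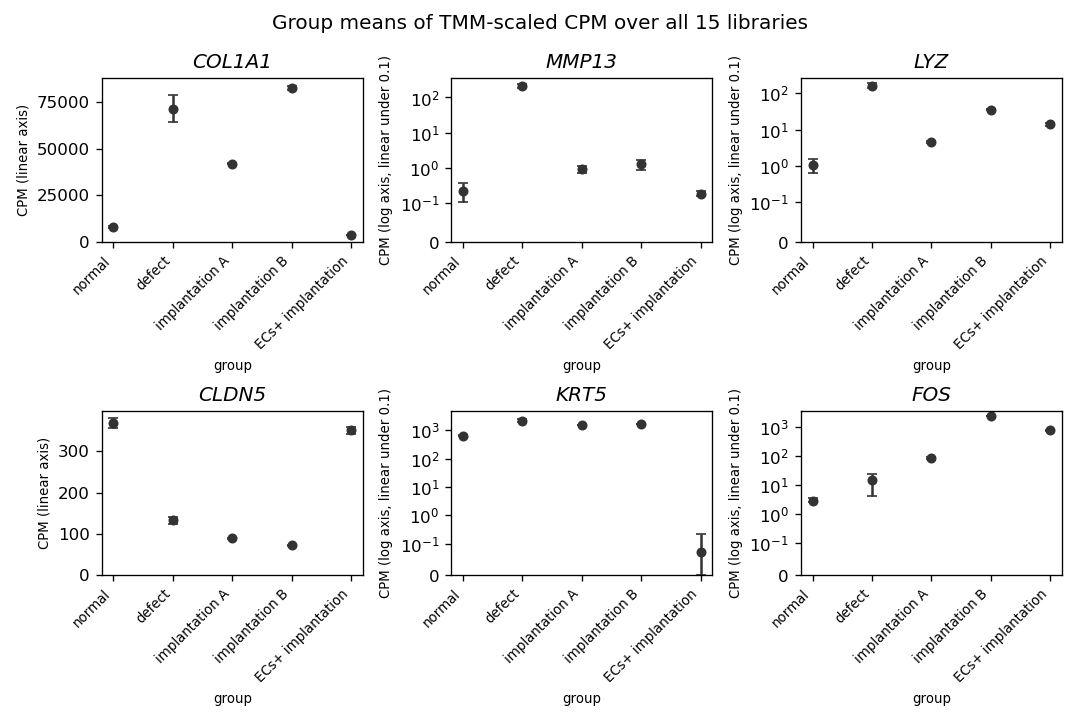
Mean TMM-scaled CPM of COL1A1 and CLDN5 (linear axes) and of MMP13, LYZ, KRT5 and FOS (log axes, linear under 0.1) in the 5 groups, with bars from the lowest to the highest of 3 libraries. ECs+ implantation lies near normal for CLDN5 and MMP13, between normal and defect for LYZ, below normal for COL1A1 and near 0 for KRT5.

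Against the normal group, the genes that fell from defect to ECs+ implantation stood at different levels by list. Of the 18 fallen activated fibroblast genes 15 still lay above the normal mean in ECs+ implantation, while of the 18 fallen crosslinking genes 13 and of the 13 fallen elastic-fibre genes 11 lay at or below it. Of the 9 fallen fibrillar collagens 6 lay above the normal mean. Of the 19 fallen macrophage genes 12 lay above it. Of the 21 risen endothelial genes 12 lay at or above the normal mean and 9 below it, and of the 11 risen smooth muscle genes 9 lay at or above it. The 13 fallen squamous genes all lay at or below the normal mean. These counts use group means and were not tested.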

How the data were processed

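Per the labels, polyadenylated RNA went into libraries of the kit TruSeq RNA Library Prep v2. Per the submitters' processing notes the build was Sscrofa11.1 and the tools were fastp, HISAT2, HTSeq and DESeq2, with no version or setting named. The sources used here do not say if strand was used in counting, so reads of genes that overlap on opposite strands may be mixed. The authors deposited raw gene counts and TPM values (adjusted for gene length and library depth), both of 26654 genes, and the count table was the basis of every result. Gene symbols are those of the deposited tables, and 99.9% were found in a RefSeq table of the same build, from which coordinates come.

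After filterByExpr on the 2 groups and TMM scaling, genes were tested with edgeR 4.0.16 (glmQLFit robust, glmQLFTest, two-sided, Benjamini-Hochberg over all 16582 genes) in R 4.3.3. SEs of log2 fold changes were computed from the working weights and the quasi-likelihood dispersion. Fitted fold changes of genes with few counts weight libraries by depth, so they follow defect 3. The shared spread was treated as known for 16554 genes, which makes p-values small. The script was tested on simulated data. Sums over lists, RN18S shares and floors are relative to library totals, with no TMM factor.

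The comparison, its 34 gene lists and the genes to be named were chosen with earlier results of these data known. Named genes are 32 of scar, macrophages, vessels and muscle whatever their result, the 6 largest rises and the 6 largest falls (of genes with a symbol and without overlap between the groups, at an adjusted p under 0.05 and a mean log2 CPM of 3 or more), up to 4 members of each described list with the smallest p, and members that go against their list (only some of them in the list of inflammatory ligands and in the lists of the closing section). COL6A5, MMP9 as a protease, CXCL10, SELP, S100A8 in its list and other members beyond these were named after their values were seen. Lists are described by counts and medians, without a test of the list.

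The alternatives tried were other scalings, other low-count filters, DESeq2 1.42.0, limma-trend on log2 TPM with 1 or 0.1 added, limma-voom with sample weights (limma 3.58.1), a fit of all 15 libraries, a replicate block, thinning every library to 207769 counts, stricter thresholds and leaving out libraries. Same-numbered libraries of the 2 groups did not deviate together (correlations over 3602 genes of -0.06, -0.0075 and -0.018). Counting error makes up much of such deviations, given the shallow libraries and the small spread within ECs+ implantation. The check therefore cannot tell whether the numbers pair the libraries.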

Additional observations from a re-analysis of the deposited data

How the results depend on the processing

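The 10826 calls (6511 higher, 4315 lower) moved by more than 1.5 times under DESeq2 (6429 calls, 3176 higher), limma-voom with quality weights (5561, 2594 higher), log2 TPM plus 1 (4241, of which 1531 higher and 2710 lower), log2 TPM plus 0.1 (3882, 1222 and 2660), thinning to the shallowest total (1814, 872 and 942, with 4616 genes left to test) and the demand for at least 2-fold (4202, 2263 and 1939). Leaving out one library at a time gave 3253 to 10763 calls, 1806 to 6251 higher and 1447 to 5384 lower, the low ends without defect 3. Of the 3253 calls without defect 3, 3187 were calls in the same direction in the full fit. The replicate block gave 7967 calls, 4740 higher and 3227 lower; no pairing is given in the labels. Of 191 named genes 133 kept their direction and call under every alternative run; over 3761 single values 205 lost the call, 7 gained it and 39 turned. With one library left out at a time, log2 ran from -0.13 to 0.52 for VEGFA, from -0.44 to 0.063 for RGS5, from -0.15 to 0.96 for AURKB, from -0.0298 to 0.26 for HSPH1, from -0.12 to 0.17 for TGFB1 and from -0.0385 to 0.15 for LAMB2, with the sign turned for VEGFA, RGS5, AURKB and HSPH1 without defect 3 and for TGFB1 and LAMB2 without defect 1 or defect 2. Thinned, VEGFA was -0.098, VEGFB -0.0050, MMP23B -0.070 and LAMB2 -0.063. MYH11 was 0.15 by library size only and 0.0013 with the replicate block. On log2 TPM plus 1 and plus 0.1, COL11A2 was -0.20 and -0.22, TNFAIP6 -0.11 and -0.12, PLAT -0.11 and -0.11, TGFB1 -0.18 and -0.18, LAMB2 -0.20 and -0.20, MYLK 0.22 and 0.22, HSPH1 -0.0919 and -0.0845, SMAD4 -0.14 and -0.15, and AURKB -0.0713 and -0.0668. HSPA1L was -0.35 by limma-voom. TGFB1 was -0.034 by DESeq2, -0.042 with DESeq2 size factors, -0.0375 with upper quartile factors, -0.0496 in the fit of all 15 libraries and -0.12 without defect 1 and 2, where LAMB2 was -0.055. The causes were not tested. The median of all genes moved by 0.18 with library size only, -0.15 with limma-voom, -0.16 with log2 TPM plus 1, -0.10 in the fit of all 15 libraries, -0.17 when thinned, -0.14 without defect 1, defect 2 or both, and 0.14 without defect 3. Under the 6 scalings and count models compared, 33 of 34 list medians kept their sign, the exception being hypoxia and glycolysis. Without defect 3, 4 of the 34 medians turned. Nitric oxide and cyclic GMP went from -0.21 to 0.33 and Schwann cell and nerve from -0.78 to 0.27. Skeletal muscle went from -0.23 to 3.48 on 2 tested genes and erythroid from 1.61 to -0.50 on 1 tested gene. The skeletal muscle list summed to 4.81 CPM in defect 1 and 0 CPM in defect 2, below the level of 3 counts, so its 3.48 is not a reliable size. Depth limits single genes: 3629 tested genes had at least 10 counts in both shallow libraries, and 1174 called genes had 0 in both.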

Other observations

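Fat and skeletal tissue genes, which the comparison above leaves out, gave these values, where 39.3% of all tested genes rose and 26% fell. Of 7 tested adipocyte genes 5 rose and 1 fell, with a median log2 of 1.07, and 1 rose without defect 3; the list summed to 57.8 to 72.0 CPM in defect and 102 to 108 CPM in ECs+ implantation. Of 11 tested cartilage and bone genes 6 rose and 3 fell (median 0.46), and 2 rose and 2 fell without defect 3. Of 15 nerve and Schwann cell genes 9 fell and 3 rose (median -0.78), and without defect 3, 3 fell, 1 rose and the median turned to 0.27. Of 19 hypoxia and glycolysis genes 9 fell and 7 rose (median -0.10, a sign that turned with scaling). PDK4, a kinase that turns glucose oxidation off, measured 0, 12.3 and 4.29 CPM in defect and 60.8, 56.3 and 59.1 CPM in ECs+ implantation, HIF1A, the hypoxia factor, measured 143, 164 and 174 CPM and 49.8, 54.5 and 49.0 CPM, the glucose carrier SLC2A1 fell by log2 1.53 and the stress gene NDRG1 rose by 1.26. Of 10 B and plasma cell genes 5 fell and 5 did not pass, of 4 mast cell genes 2 fell and 1 rose, and both skeletal muscle genes tested did not pass.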
